A study of Mus musculus with 15 samples.

Results

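Hmgcs1, Idi1, Fdft1, Sqle, Lss, Cyp51, Dhcr7 and Insig1 are 8 genes of the cholesterol pathway whose RNA was followed in mouse olfactory bulbs in which CRH signalling was changed. CRH, corticotropin-releasing hormone, is a peptide of the stress response. The members were all probes that carried 1 of these 8 names in the scanner files. This gave 10 probes of 55681, of which 9 passed the filter on dim probes, and each of the 8 genes had at least 1 probe that passed, among 27330 genes tested. The set is named for synthesis and uptake, but 7 of the 8 are synthesis enzymes, Insig1 is a regulator and none is an uptake gene, so uptake genes were taken from a separate list.

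Cells make cholesterol from acetyl-CoA through mevalonate, isoprenoid diphosphates, squalene and lanosterol. The genes of this chain are switched on together by SREBP-2, a transcription factor that is released from the endoplasmic reticulum when sterols are low, carried by SCAP and held back by INSIG proteins. The brain makes its own cholesterol because lipoproteins of the blood do not pass the blood-brain barrier. Oligodendrocytes use much of it for myelin, and astrocytes supply neurons with cholesterol bound to apolipoprotein E.

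Total RNA of the olfactory bulb came from 15 male mice, 6 to 8 weeks old and 1 per array, taken 2 weeks after 500 nL of an adeno-associated virus (AAV) whose cargo needs Cre recombinase to be expressed. The knockout group was 5 mice of strain 129S4/SvJae that lacked the CRH receptor (CRHR1-/-) and received AAV-flex-EGFP, and the labels name no Cre in it. The Cre GFP group was 5 CRHR1-Cre mice of strain C57Bl/6 with AAV-flex-GFP, and stood in for wild type. The active CRHR1 group was 5 CRHR1-Cre mice of strain C57Bl/6 with AAV-flex-(CA)CRHR1, which codes for a constitutively active receptor. Per the labels the cargo is expressed in CRHR1+ granule cells, inhibitory neurons that outnumber all others in the bulb, whereas the RNA came from all of its cells. Strain, receptor loss and the absence of a named Cre allele coincide in the knockout group and cannot be told apart. In such bulk RNA fewer cells of a type and less RNA per cell cannot be told apart.

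The arrays' 75th percentiles of signal were 664 to 1170, the share of probes well above background was 58.7% to 66.9%, and within-group mean correlations were 0.985 to 0.993. The knockout arrays were all on slide 1 and the active CRHR1 arrays all on slide 2, with Cre GFP split between them, arrays 1 to 3 on the former and arrays 4 and 5 on the latter. The Crhr1 probe had a level of 3.16 ± 0.12 in knockout, 3.63 ± 0.18 in Cre GFP and 3.72 ± 0.12 in active CRHR1 bulbs (SD, n = 5). Its place relative to the deleted part and to the viral sequence was not determined, so it does not check the labels. Of the cell type markers, all 8 of granule cells and all 6 of mitral and tufted cells passed the filter on dim probes.

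Promoters are shown for 3 members, Hmgcs1 and Insig1 because they hold the core of the element through which SREBP-2 is known to act, and Idi1, which fell like Hmgcs1, because its window holds no match to that core. Each run is the 250 bases before the start site, 5′ to 3′ on the gene's strand, from RefSeq promoters of build GRCm38.p6. Capitals mark matches on either strand to CACNCCAC, the core of a sterol regulatory element, and to its longer form TCACNCCAC. They also mark matches on either strand to CCAAT, the site of the co-factor NF-Y. Hmgcs1 is at chr13:119690101-119690350 (plus strand), Idi1 at chr13:8885356-8885605 (plus strand) and Insig1 at chr5:28071162-28071411 (plus strand).
Hmgcs1: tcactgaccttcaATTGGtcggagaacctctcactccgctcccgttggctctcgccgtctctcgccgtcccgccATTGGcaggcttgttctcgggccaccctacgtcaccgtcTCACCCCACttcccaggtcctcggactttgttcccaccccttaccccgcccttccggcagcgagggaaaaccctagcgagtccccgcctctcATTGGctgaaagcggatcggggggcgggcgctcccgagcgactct
Idi1: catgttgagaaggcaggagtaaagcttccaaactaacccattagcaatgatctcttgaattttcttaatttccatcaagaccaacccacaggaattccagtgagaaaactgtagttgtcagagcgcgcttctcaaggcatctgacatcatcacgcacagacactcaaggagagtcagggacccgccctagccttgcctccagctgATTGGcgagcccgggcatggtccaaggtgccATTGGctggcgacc
Insig1: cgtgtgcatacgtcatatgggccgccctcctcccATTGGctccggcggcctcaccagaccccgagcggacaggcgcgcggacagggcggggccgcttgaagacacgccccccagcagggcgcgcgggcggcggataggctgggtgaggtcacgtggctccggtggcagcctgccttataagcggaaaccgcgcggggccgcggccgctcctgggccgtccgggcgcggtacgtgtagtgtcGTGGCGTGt

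The promoter table held 6 of the 8 members, with 3 start sites for Dhcr7, and not Fdft1 or Sqle. In the window of 300 bases, 250 before and 50 after the start, Hmgcs1 held the longer form TCACNCCAC, whose first base lay at -137 from the start site. That form is in 1.24% of all 32851 promoters of the table, and among the members in Hmgcs1 alone. The looser CACNCCAC, which the longer form contains, was in Hmgcs1 and, on the opposite strand at -9, in Insig1, against 6.24% of all promoters. CCAAT was in at least 1 promoter of all 6 members and in 37.4% of all promoters, with 4 matches in Hmgcs1, 1 of them after the start site, and 2 in Idi1. GGGCGG, the site of Sp1, was also in all 6 and in 35.7% of all promoters. A match is a description of the letters and not a site of binding.

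Active CRHR1 bulbs were set against Cre GFP bulbs of the same strain to see which genes follow a raised CRH signal. Fdft1, Idi1, Sqle and Hmgcs1, enzymes of the chain from HMG-CoA to squalene epoxide, all fell with active CRHR1, by 24.9% to 27.0%. The means of the other 4 members differed by -19.5% to -15.4% and did not pass the test. Thus 4 of the 8 were called, all lower, where 8.57% of all genes were called in either direction and 4.67% lower. A level is the log2 signal of a probe minus its array's 75th percentile, changes are differences of group means on that scale (log2 change ± SE), and a gene was called at an adjusted p under 0.05 in limma.

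Hmgcs1 makes HMG-CoA, an early intermediate on the way to mevalonate (chr13_random:114793-114852, mm9, minus strand). Its level was 4.46, 4.59, 4.71, 4.70 and 4.71 on Cre GFP arrays 1 to 5, and 4.19, 4.27, 4.29, 4.26 and 4.09 on active CRHR1 arrays 1 to 5. All active CRHR1 arrays lay below all Cre GFP arrays. Hmgcs1 fell by 0.41 ± 0.06 (adjusted p = 0.00104, rank 256 of 27330 genes), and kept its call in all 31 alternatives that measured it, its change lying between -0.51 and -0.31. A second probe named Hmgcs1 (chr13_random:114558-114617), whose description in the scanner files names another gene, was well above background on 3 Cre GFP, 1 knockout and 0 active CRHR1 arrays, and is the 1 probe of the 10 that did not pass the filter.

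Idi1 interconverts the building blocks of isoprenoids (chr13:8891524-8891583, mm9, plus strand). Its level was 1.61, 1.72, 1.94, 1.96 and 1.98 on the Cre GFP arrays and 1.38, 1.48, 1.42, 1.55 and 1.23 on the active CRHR1 arrays, again without overlap. Cre GFP arrays 1 and 2 were the low ones of their group. Idi1 fell by 0.43 ± 0.10 (adjusted p = 0.0200). Its adjusted p was 0.0522 without Cre GFP array 3, 0.0595 without Cre GFP array 5, 0.0539 without active CRHR1 array 1 and 0.0563 without active CRHR1 array 5, with changes from -0.42 to -0.38.

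Fdft1, or squalene synthase, takes farnesyl diphosphate into the sterol branch (chr14:63765750-63769990, mm9, minus strand, a probe whose ends lie apart in the genome). Its level was 2.46, 2.54, 2.65, 2.51 and 2.75 on the Cre GFP arrays and 2.11, 2.18, 2.20, 2.27 and 1.88 on the active CRHR1 arrays. The groups did not overlap, and active CRHR1 array 5 was the lowest of all. Fdft1 fell by 0.45 ± 0.08 (adjusted p = 0.00417), a call that held without any 1 array. A second, far dimmer probe (chr14:63764562-63764621), at a mean level of -4.48 with Cre GFP and -4.74 with active CRHR1, gave -0.26 ± 0.15 (adjusted p = 0.414 in the fit of all probes).

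Sqle, or squalene epoxidase, carries out the first oxygen-dependent step (chr15:59162688-59162747, mm9, plus strand). Its level was 2.91, 3.21, 3.29, 3.25 and 3.36 on the Cre GFP arrays and 2.73, 2.86, 2.87, 2.90 and 2.56 on the active CRHR1 arrays. The gap between the groups was narrow, with Cre GFP array 1 at 2.91 just above active CRHR1 array 4 at 2.90. Sqle fell by 0.42 ± 0.10 (adjusted p = 0.0252). It was the least firm of the 4 calls, lost without any 1 of Cre GFP arrays 2, 3, 4 and 5 or active CRHR1 arrays 1 and 5 (adjusted p from 0.0519 to 0.0722).

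The 3 enzymes after squalene epoxide and the regulator overlapped between these groups. Lss, lanosterol synthase, which closes the sterol rings (chr10:76015992-76016051), ran from -0.80 to -0.50 with a median of -0.59 on the Cre GFP arrays and from -1.08 to -0.72 with a median of -0.84 on the active CRHR1 arrays. Its change was -0.25 ± 0.08 (adjusted p = 0.0698, and 0.0456 without Cre GFP array 2). Dhcr7, a reductase of the last steps (chr7:151033874-151033933), ran from -0.31 to -0.05 and from -0.61 to -0.29, a change of -0.24 ± 0.10 (adjusted p = 0.136).

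Cyp51, lanosterol demethylase (chr5:4081471-4081530, minus strand), was the most scattered enzyme. It read -1.75 and -1.77 on Cre GFP arrays 1 and 2 and -1.43 on each of the other 3, and ran from -2.08 to -1.56 with active CRHR1. The change of -0.25 ± 0.15 had a 95% interval from -0.57 to 0.07 (adjusted p = 0.286). Insig1, which holds SREBP-2 back and is itself a known SREBP target (chr5:28404246-28404305, plus strand), ran from -0.77 to -0.16 and from -1.14 to -0.55, a change of -0.31 ± 0.14 (adjusted p = 0.172).

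**Figure D1:**
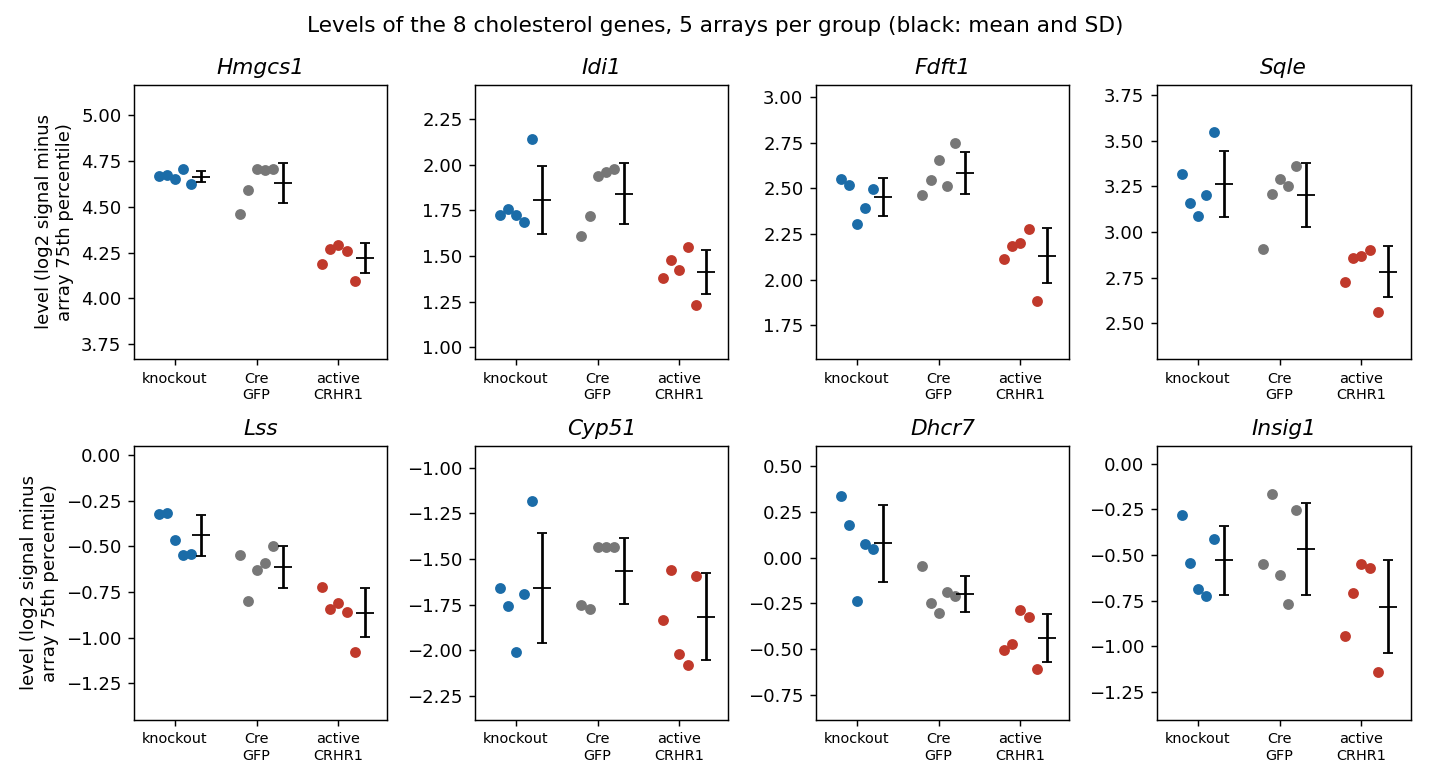
Level of each of the 8 genes (log2 signal minus the array's 75th percentile) on the 5 arrays of the knockout, Cre GFP and active CRHR1 groups, 1 point per array in order of array number, with the group mean and SD in black; every panel spans the same 1.5 log2 units. For Hmgcs1, Idi1, Fdft1 and Sqle the 5 active CRHR1 points lie below all 5 Cre GFP points.

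Over the set, 4 of 8 members had all active CRHR1 arrays below all Cre GFP arrays, against 7.24% of all genes. The median change was -0.36 for the members and -0.07 for all genes, and the means of all 8 members and of 61.9% of all genes were lower. With arrays centred on their median instead, 2 members were called, Hmgcs1 and Fdft1, and the share of lower genes among all calls moved from 54.5% to 44.1%. All 8 means stayed lower under that centring. The count was also 2 without Cre GFP array 3 or 5 or active CRHR1 array 1 or 5.

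The slides bear on these values, since Cre GFP arrays lay on both. Cre GFP arrays 4 and 5 on slide 2 had higher means than arrays 1 to 3 on slide 1 for 7 of the 8 members, by up to 0.22 for Cyp51 and as little as 0.0013 for Dhcr7, the exception being Insig1. Within slide 2, where active CRHR1 can be compared with Cre GFP arrays 4 and 5 only, the change was -0.48 for Hmgcs1, -0.56 for Idi1, -0.50 for Fdft1 and -0.52 for Sqle. With slide as a fixed block, which gives the same changes from all arrays, 3 of these stayed called and Sqle did not (adjusted p = 0.0558), while the share called among all genes went from 8.57% to 3.71%. On slide 2 arrays alone Hmgcs1 was called (adjusted p = 0.0489), and Idi1, Fdft1 and Sqle were not (0.0528, 0.0907 and 0.0712).

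Averaged over the 8 members, each of the 5 active CRHR1 arrays lay below each Cre GFP array. The mean deviation from the Cre GFP mean was -0.38, -0.28, -0.29, -0.28 and -0.51 on active CRHR1 arrays 1 to 5 and ran from -0.11 to 0.12 on the Cre GFP arrays. Active CRHR1 array 5 was the lowest of its group for 7 members, all but Cyp51. On active CRHR1 array 2 Cyp51 alone was above the Cre GFP mean.

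Markers of several cell types moved with the active receptor, where 8.57% of all genes were called in either direction and 4.67% lower. Their summed signal, in units of the array's 75th percentile, was 132 to 169 for 10 oligodendrocyte markers with active CRHR1 against 176 to 216 with Cre GFP, and 3 of the 10 fell. For 8 general neuronal markers it was 364 to 435 against 445 to 504, with 3 fallen, and for 8 granule cell markers 375 to 447 against 450.5 to 509, with 2 fallen. For 8 microglia and macrophage markers it was 92.7 to 131 against 66.7 to 83.9, with 5 risen. None of these ranges overlapped, whereas those of the 8 astrocyte markers did, at 283 to 340 against 311 to 379. Gfap alone of these 8 was called, rising by 0.86 (adjusted p = 0.022 in limma), and by 1.15 in the slide block fit (adjusted p = 0.0301). Of 6 T cell markers 4 were tested and 2 rose, at a sum of 1.57 to 2.61 against 1.59 to 2.09. The sums of 6 ensheathing glia markers overlapped, at 101 to 126 against 115 to 155, and 0 of the 6 were called in limma. An unadjusted p under 0.05 was found for 3 of them, and for 7463 of all 27330 genes. Blocking on slide left 4 oligodendrocyte, 3 microglia, 1 T cell, 1 astrocyte, 0 neuronal and 0 granule cell markers called. The part of these cell types in the fall of the cholesterol genes was not tested.

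**Figure D2:**
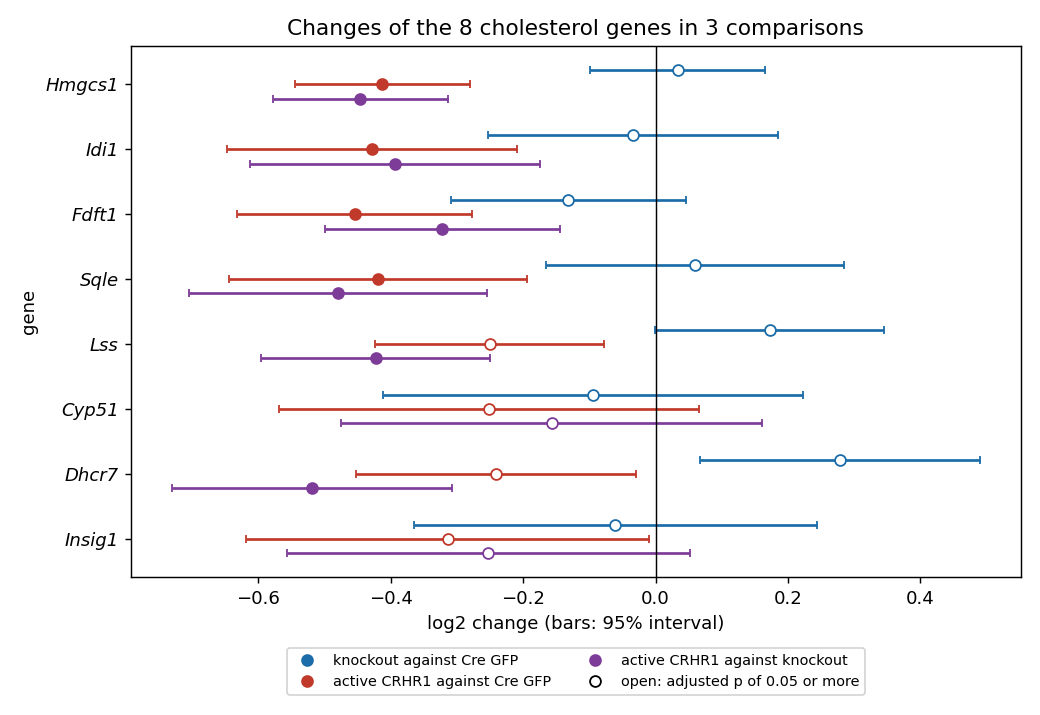
Log2 change of each of the 8 genes in the 3 comparisons, with its 95% interval from the limma fit; filled points passed an adjusted p of 0.05 and open points did not. Active CRHR1 against Cre GFP has 4 filled points, active CRHR1 against knockout 6, and knockout against Cre GFP none, and all filled points lie below 0.

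Knockout bulbs were set against Cre GFP bulbs to see which genes follow a lowered CRH signal, although the strains differ too. None of the 8 members was called, while 3.39% of all genes were. In limma 1 of the 8, Dhcr7, had an unadjusted p under 0.05, as had 5423 of all 27330 genes. Of the members 4 had higher and 4 lower means, with a median change of -0.00040 against 0.0037 for all genes. Dhcr7 read 0.34, 0.18, -0.24, 0.07 and 0.05 on knockout arrays 1 to 5 and -0.05, -0.25, -0.31, -0.19 and -0.21 on Cre GFP arrays 1 to 5, so that knockout array 3 alone lay among the Cre GFP arrays. Its change was 0.28 ± 0.10 (adjusted p = 0.136), and without knockout array 3 it was 0.36 and passed (adjusted p = 0.0447).

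Lss differed by 0.17 ± 0.08 (adjusted p = 0.254) and Fdft1 by -0.13 ± 0.08 (adjusted p = 0.397; its second probe -0.37 ± 0.15, adjusted p = 0.256). Hmgcs1, at 4.67 ± 0.03 in the knockout and 4.63 ± 0.11 in the Cre GFP group (SD, n = 5), had a 95% interval of the difference from -0.10 to 0.17. For the early enzymes and Sqle the intervals were similar in kind, from -0.25 to 0.18 for Idi1 and from -0.17 to 0.28 for Sqle. Those of Cyp51 and Insig1 were wider, from -0.41 to 0.22 and from -0.37 to 0.24. Knockout array 5 was the highest of its group for Idi1 (2.14), Sqle (3.55) and Cyp51 (-1.18).

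The comparison of active CRHR1 with knockout bulbs sets the group ranked highest in CRH signalling against the lowest, across strains and across slides, since no slide held both groups. It uses the same active CRHR1 arrays as the comparison above. Of the 8 members 6 fell, where 25.7% of all genes were called in either direction and 16.3% lower. The other 2, Cyp51 and Insig1, had lower means, and the median was -0.41 for the members and -0.07 for all genes. Dhcr7 fell by 0.52 ± 0.10 (adjusted p = 0.00323), Sqle by 0.48 ± 0.10 (adjusted p = 0.00704) and Hmgcs1 by 0.45 ± 0.06 (adjusted p = 0.000551). Lss fell by 0.42 ± 0.08 (adjusted p = 0.00337), Idi1 by 0.39 ± 0.10 (adjusted p = 0.0157) and Fdft1 by 0.32 ± 0.08 (adjusted p = 0.0150).

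All active CRHR1 arrays lay below all knockout arrays for these 6, as for 11.9% of all genes. The knockout arrays ran from 4.63 to 4.71 for Hmgcs1, 1.68 to 2.14 for Idi1, 2.31 to 2.55 for Fdft1, 3.09 to 3.55 for Sqle, -0.55 to -0.32 for Lss and -0.24 to 0.34 for Dhcr7. The closest approach was for Fdft1, where active CRHR1 array 4 at 2.27 lay just below knockout array 3 at 2.31. The second, far dimmer Fdft1 probe gave 0.11 ± 0.15, against the direction of the first. On it knockout array 3 read -5.49 and the other knockout arrays -4.78 to -4.61. Cyp51 differed by -0.16 ± 0.15 (adjusted p = 0.437) and Insig1 by -0.25 ± 0.14 (adjusted p = 0.190).

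Centring and slide changed how many members passed against the knockout. With arrays centred on their median 4 members were called, and the share of lower genes among all calls moved from 63.5% to 52.0%. With slide as a fixed block, which then rests on the 5 Cre GFP arrays to link the slides, 1 member stayed called, Hmgcs1 (-0.56, adjusted p = 0.0195), and 0.0625 was the smallest adjusted p of the others, for Lss (-0.54). That block took the share called among all genes from 25.7% to 2.48%.

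Cell type markers moved in this comparison too, where 25.7% of all genes were called in either direction and 16.3% lower. The oligodendrocyte marker sum was 204 to 257 in the knockout, above the 132 to 169 with active CRHR1, and 8 of its 10 markers fell, of which 3 were called with the slide block. All 6 markers of ensheathing glia, the cells that wrap olfactory axons, fell, with a median of -0.41, and their sum of 144 to 179 in the knockout did not overlap the 101 to 126 with active CRHR1. Of these 6, Npy, Frzb and Ngfr stayed called with the slide block. The microglia sum was 75.3 to 90.2 in the knockout against 92.7 to 131 with active CRHR1, and 3 of its 8 markers rose and 1 fell. P2ry12, against the sum, had a mean level of -0.38 in the knockout and -0.92 with active CRHR1. The granule cell sum of 422 to 517 in the knockout overlapped that with active CRHR1. The part of these cell types in the members' fall was not tested. Without knockout arrays 2 and 5, a choice made after the data were seen, Idi1 (-0.30, adjusted p = 0.0678) and Fdft1 (-0.29, adjusted p = 0.0790) lost their calls.

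Several other genes of cholesterol synthesis fell as well. Of 15 further synthesis genes 4 fell and none rose with active CRHR1 against Cre GFP, where 4.67% of all genes were called lower, for a median of -0.23 and 14 lower means. Nsdhl, a sterol dehydrogenase, fell by 0.39 ± 0.08 (adjusted p = 0.00704), Fdps, which makes farnesyl diphosphate, by 0.40 ± 0.09 (adjusted p = 0.0169), Msmo1, a methylsterol oxidase, by 0.40 ± 0.09 (adjusted p = 0.0173) and Mvd, a decarboxylase of the mevalonate steps, by 0.38 ± 0.10 (adjusted p = 0.0309). With slide as a fixed block Msmo1 kept its call (-0.52, adjusted p = 0.0266), and Nsdhl, Fdps and Mvd did not (0.0753, 0.0548 and 0.121).

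Against the knockout 7 of these 15 synthesis genes fell and none rose, where 16.3% of all genes were called lower, and the median was -0.24 against -0.07 for all genes. Msmo1 fell by 0.40, Fdps by 0.39, Mvd by 0.39 and Hsd17b7, a sterol ketone reductase, by 0.24. Nsdhl missed the threshold there (-0.22, adjusted p = 0.0510). Between knockout and Cre GFP none of the 15 was called in limma, and the median was 0.0011. There 3 of the 15 had an unadjusted p under 0.05, as had 5423 of all 27330 genes. With slide as a block none of the 7 kept its call.

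**Figure D3:**
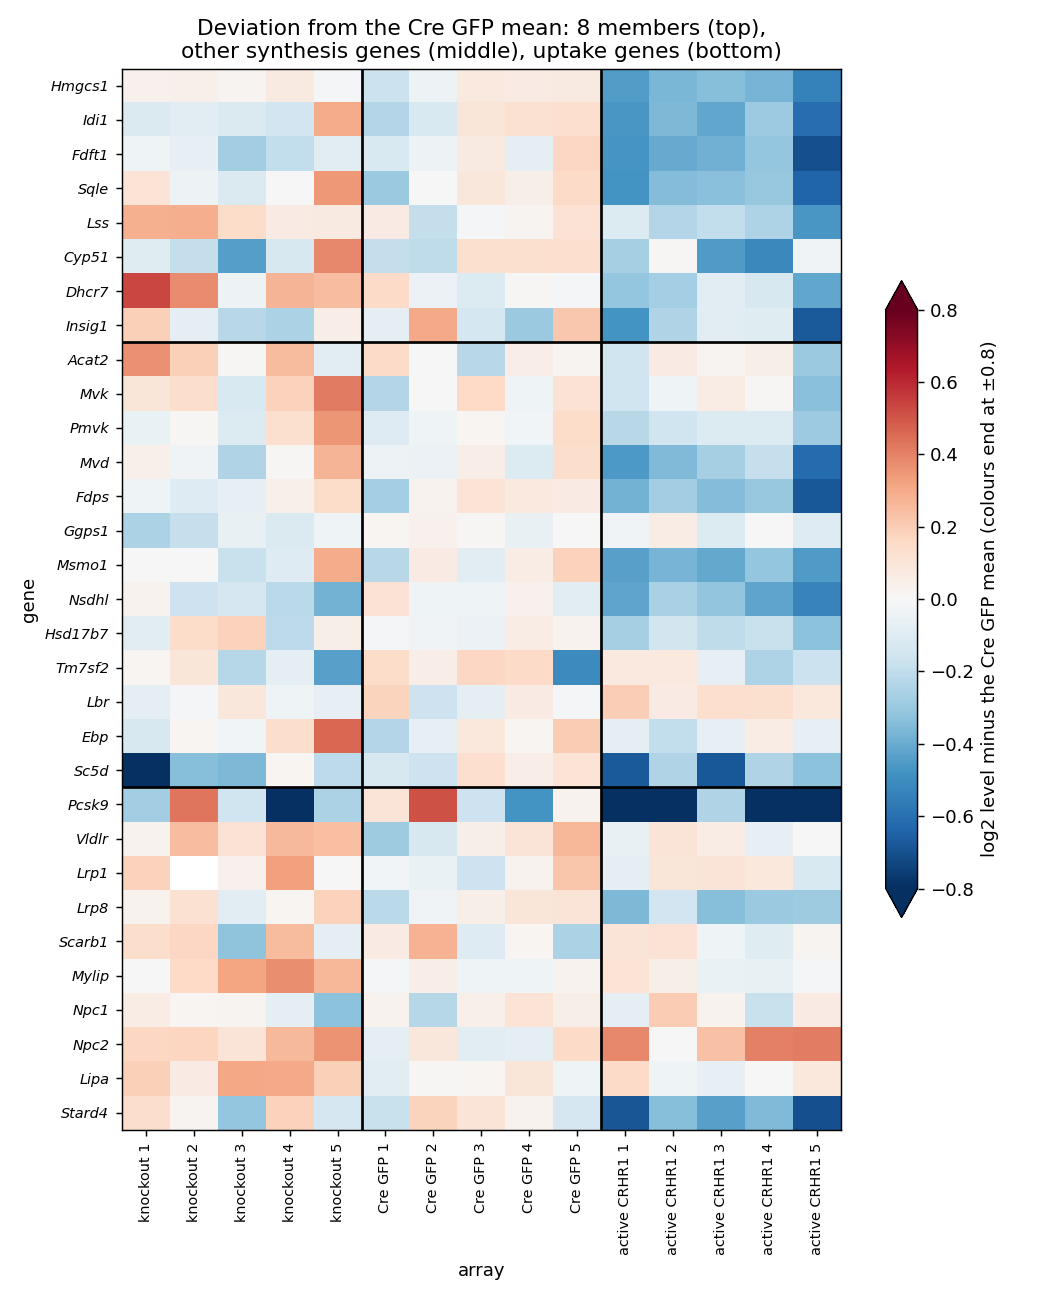
Level of the 8 members (top block), 13 other synthesis genes (middle) and 10 uptake genes (bottom) on each of the 15 arrays, as the log2 difference from the Cre GFP mean; blue is lower and red higher, colours end at ±0.8, and an array whose spot was dropped as an outlier is blank. Blue prevails in the active CRHR1 columns of the top block and in part of the middle one, while the uptake genes are mixed.

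Uptake genes went both ways. Of 12 genes of uptake and lysosomal release 2 fell and 1 rose with active CRHR1 against Cre GFP, where 8.57% of all genes were called. The list median was 0.01. Stard4, which carries sterols between membranes and is a known SREBP-2 target, fell by 0.50 ± 0.11 (adjusted p = 0.0139), from -0.26 to 0.09 on the Cre GFP arrays to -0.79 to -0.43. Lrp8, a receptor for apolipoprotein E and reelin, fell by 0.29 ± 0.07 (adjusted p = 0.0286).

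When slide entered the fit as a block, Lrp8 kept its call (-0.38, adjusted p = 0.0383) and was the 1 gene of the 12 called. Stard4 lost its call there (-0.45, adjusted p = 0.115). Against the knockout 4 of the 12 fell, where 16.3% of all genes were called lower. Stard4 fell by 0.49 and Lrp8 by 0.34. Mylip, a ubiquitin ligase that is a known target of oxysterol receptors, fell by 0.22. Lipa, the lysosomal lipase that frees cholesterol, fell by 0.18. Against Cre GFP, Mylip and Lipa hardly differed with active CRHR1 (0.0044 and 0.027, adjusted p = 0.975 and 0.822). Their knockout means were above those of Cre GFP, by 0.22 and 0.21 (adjusted p = 0.0936 and 0.0884). In the knockout against Cre GFP 1 of the 12 rose and none fell, where 3.39% of all genes were called. Blocking on slide left 0 of the 12 called in either comparison with the knockout.

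Genes that sense sterols did not pass with active CRHR1 against Cre GFP, where 8.57% of all genes were called. Of 12 genes of sterol sensing and SREBP control 0 were called against Cre GFP in limma, 11 had lower means, and the median was -0.13. An unadjusted p under 0.05 was found for 6 of the 12, and for 7463 of all 27330 genes. Srebf2, which codes for SREBP-2, had a difference of -0.09 ± 0.13 (adjusted p = 0.697), Srebf1 by 0.07 ± 0.10 (adjusted p = 0.689) and Insig2 by -0.18 ± 0.07 (adjusted p = 0.102). Against the knockout, where 25.7% of all genes were called, Ubxn8 alone of the list passed. It fell by 0.35 ± 0.07 (adjusted p = 0.00339), a call lost with the slide block (adjusted p = 0.0673). Ubxn8 was put on the list, but a role of it in sterol sensing is not established. Between knockout and Cre GFP 0 were called and 1 had an unadjusted p under 0.05 in limma, as had 5423 of all 27330 genes.

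Among genes of cholesterol export, storage and turnover the calls against Cre GFP were rises. Of 14 such genes 2 rose and none fell with active CRHR1 against Cre GFP, where 8.57% of all genes were called. The list median was 0.04. Ch25h makes an oxysterol that is known to hold back SREBP processing and is induced in activated macrophages. Its deviation from the Cre GFP mean was 2.13, 1.28, 0.73, 1.07 and 1.56 on active CRHR1 arrays 1 to 5 and ran from -0.46 to 0.31 on the Cre GFP arrays, a rise by 1.35 ± 0.22 (adjusted p = 0.00181), and 1.57 in the slide block fit (adjusted p = 0.00899). Abca1, which exports cholesterol to apolipoproteins and is a known target of oxysterol receptors, rose by 0.32 ± 0.09 (adjusted p = 0.0436), a call lost with the slide block (0.26, adjusted p = 0.232).

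Apoe, the main apolipoprotein of the brain, differed by -0.12 (adjusted p = 0.403) and Cyp46a1, the neuronal enzyme that clears cholesterol from the brain, by -0.06 (adjusted p = 0.729). Against the knockout Ch25h rose by 1.44, while Apoe fell by 0.31 and Clu, another apolipoprotein, by 0.27. The slide block kept the Ch25h call (adjusted p = 0.0309) and ended those of Apoe (0.273) and Clu (0.325). In the knockout against Cre GFP the sterol transporter gene Abcg4 fell by 0.31 ± 0.07 (adjusted p = 0.0220, and 0.0897 with the slide block), and Ch25h differed by -0.09 (adjusted p = 0.864).

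Fatty acid synthesis, which SREBP-1 governs, showed small falls. With active CRHR1 4.67% of all genes were called lower against Cre GFP and 16.3% against the knockout. Of 10 genes 2 fell and none rose with active CRHR1 against Cre GFP, Acss2, an acetyl-CoA synthetase, by 0.24 ± 0.07 (adjusted p = 0.0415) and Scd2, the main brain desaturase, by 0.20 ± 0.05 (adjusted p = 0.0309), for a median of -0.18 and 10 lower means. With slide as a block neither kept its call (adjusted p = 0.122 and 0.134). Against the knockout 4 fell, Scd1 by 0.69, Scd2 by 0.38, Fads1 by 0.32 and Fasn by 0.30, of which the slide block kept Scd1 (adjusted p = 0.0372) and not Scd2 (0.0569), Fads1 (0.194) or Fasn (0.0949). Scd1, another desaturase, also rose in the knockout against Cre GFP, by 0.49 ± 0.08 (adjusted p = 0.00684), or 0.47 in the slide block fit (adjusted p = 0.0324).

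**Figure D4:**
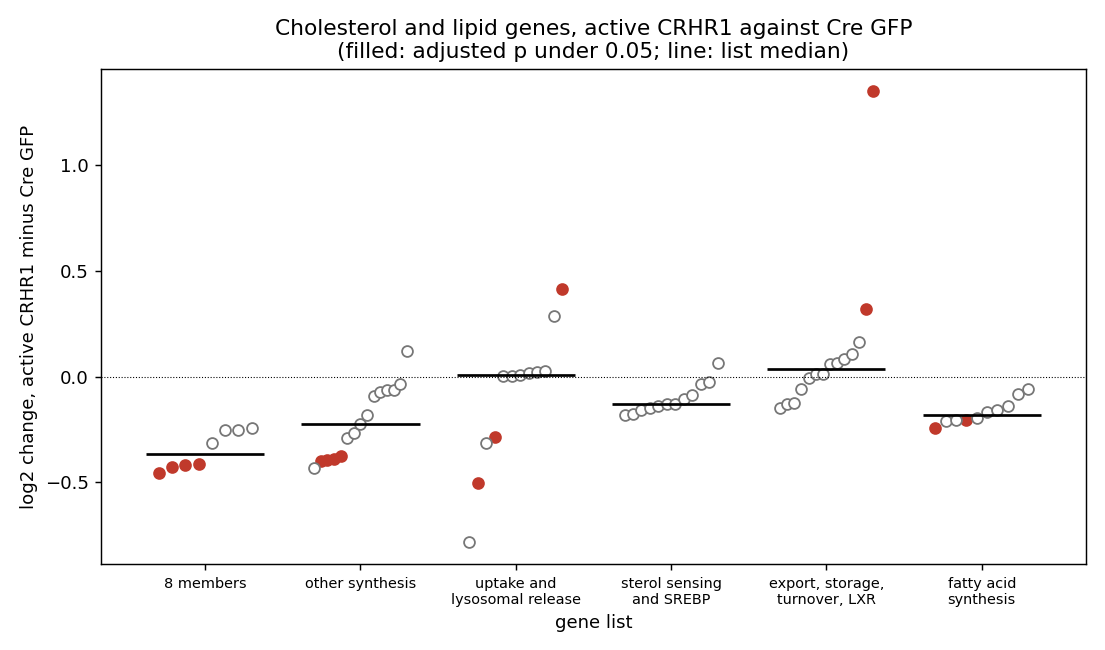
Log2 change, active CRHR1 minus Cre GFP, of each of the 8 members and of the genes of 5 further lists, 1 point per gene ordered by change within its list; filled points passed an adjusted p of 0.05 in limma and lines are list medians. The members and the other synthesis genes have medians of -0.36 and -0.23, and the 2 filled points of the export list, Ch25h and Abca1, lie above 0.

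Over the 5 lists 63 genes were tested, and 3 rose and 8 fell with active CRHR1 against Cre GFP, 1 rose and 18 fell against the knockout, and 2 rose and 1 fell in the knockout against Cre GFP. These 11, 19 and 3 calls stand beside 8.57%, 25.7% and 3.39% of all genes called, and the 19 of 63 against the knockout are a share near that of all genes. The 8 and 18 that fell with active CRHR1 stand beside 4.67% and 16.3% of all genes called lower. The 11 calls against Cre GFP became 5 without Cre GFP array 2, 3 or 5 or active CRHR1 array 1 or 5, and 7 without Cre GFP array 4. The 19 against the knockout became 12 without active CRHR1 array 5, and the 3 of the knockout became 1 without Cre GFP array 3 or 4. The synthesis, uptake and fatty acid falls came with the lower oligodendrocyte and higher microglia marker sums given above. They also came with lower neuronal sums against Cre GFP and lower ensheathing glia sums against the knockout. The neuronal sums of active CRHR1 and knockout overlapped, at 364 to 435 against 419 to 500. The part of these cell types in the falls was not tested.

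The members also varied together from array to array within groups, though not as a single block. Over the 15 arrays, as deviations from each group's mean, Pearson's r between 2 members ran from -0.18 to 0.89 over 28 pairs, with a median of 0.38, and was highest for Idi1 with Sqle. Lss with Cyp51 was the lowest pair. All values of an array share its RNA sample and its scaling, which such correlations include. The genes whose deviations were most like the members' mean were Dctn2 (r = 0.934), Apbb1 (0.931), Ptov1 (0.925), Fzr1 (0.924) and Bend6 (0.919), over 15 arrays and 16752 genes with a median r of 0.208. None is on the cholesterol lists, and Apbb1 alone of them fell with active CRHR1 against Cre GFP (-0.28, adjusted p = 0.0168). Among genes of the lists Mvd (0.872) was at rank 33 and Mvk (0.853) at rank 62, Mvk being named after its values were seen. Others of the synthesis list spread widely, among them Msmo1 (0.77) at rank 342, Fdps (0.725) at 663, Hsd17b7 (0.146) at 9170, Nsdhl (0.00264) at 10900 and Lbr (-0.379) at 14800. Srebf2 (-0.398) was at rank 15000. The lists thus did not vary with the members as a whole.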

How the data were processed

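The deposited scanner files give an intensity per spot for 15 arrays of 1 colour. Per the file headers, background was subtracted by Agilent's extraction software, version 10.7.3.1, and arrays were not scaled to each other. The authors' series values are a ratio, each spot's processed intensity over its array's median, as found by setting them against the scanner values. Probe coordinates are those of mm9, per the file headers, and the position of a probe within its transcript was not determined.

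Without control spots and outlier spots, each processed signal was put on the log2 scale, the 75th percentile of its array was subtracted, and repeated spots were averaged. The filter on dim probes asked for a signal well above background on 4 or more arrays of some group of 5 and passed 33965 of 55681 probes. The brightest passing probe stood for its gene. All 3 groups entered 1 limma fit (version 3.58.1, R 4.3.3, lmFit and eBayes), with Benjamini-Hochberg adjustment over 27330 genes and a threshold of 0.05. The 3 comparisons share groups. The labels describe 5 mice per group, and the number of arrays limits the precision.

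The members, the gene lists and the motifs were chosen with earlier results of these data known. Named were the members, 10 genes of the lists always, and up to 4 genes of smallest p among those called in each list and comparison, besides the 5 genes most like the members' mean. Some genes that this names are not reported here. Within-group deviations of same-numbered arrays did not correlate throughout, so the numbers were not treated as pairs. The steps were tested on simulated data. Alternatives were other normalizations, filters, probe choices, slide and replicate blocks, and each array left out. Figures were drawn with matplotlib 3.10.9.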

Additional observations from a re-analysis of the deposited data

Results flagged for a closer look

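Among the 24 combinations of a member and a group of 5 arrays, 1 array stood apart. The Idi1 level of knockout array 5 was 2.14, while the other knockout arrays lay between 1.68 and 1.76, so that its gap to the nearest array took up 0.841 of the group's range, above the critical value of 0.71 for 5 samples. Chance flags about 1 in 20 groups. The array was also the highest knockout array for Sqle and Cyp51. Without it the Idi1 change of active CRHR1 against knockout was -0.31 (adjusted p = 0.0285 in limma).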

How the results depend on the processing

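The members' changes with active CRHR1 kept their direction in every alternative run against both other groups, and the counts called moved. No alternative read the second Fdft1 probe alone, which gave 0.11 against the knockout. Of 8 members 4 were called against Cre GFP. The count was 5 with quantile normalization, normexp background correction or array weights, where 7.77%, 10.3% and 20.9% of all genes were called. It was 2 with median centring, 2 of the 6 measured in the authors' series values, 2 at an adjusted p under 0.01 and 1 on slide 2 arrays alone. Against the knockout the 6 calls became 3 of the 6 measured in the authors' values and 1 with slide as a fixed block. Leaving out each array in turn gave 2 to 4, 6 to 6 and, for knockout against Cre GFP, 0 to 1. Mean of a gene's probes, which weighs the dim second Fdft1 probe like the first, ended the Fdft1 call against the knockout (-0.11, adjusted p = 0.446).

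Of the 63 other genes, the 11 called against Cre GFP became 6 of 58 measured in the authors' values, 5 with median centring, 5 with no filter, 19 with array weights, 2 at 0.01, 3 with the slide block and 1 on slide 2. Without each array they ranged from 5 to 13. The 19 against the knockout became 10 of 58 in the authors' values, 9 with median centring, 12 with no filter, 8 at 0.01 and 2 with slide as a fixed block. They became 12 without knockout arrays 2 and 5, and 12 to 20 without each array. With normexp background correction they were 23 and with slide as a random block 27, where 31.7% and 38.9% of all genes were called. The 3 of the knockout became 1 in the authors' values, with median centring, no filter, 0.01 and the slide block, and 0 on slide 1, and 1 to 3 without each array.

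Directions turned only for small knockout changes against Cre GFP, none called. Hmgcs1 turned to -0.022 with median centring (without each array -0.010 to 0.052), Idi1 to 0.052 with the slide block and on slide 1 (-0.12 to 0.00024), Sqle to -0.032 with array weights and -0.0020 without knockout arrays 2 and 5 (-0.014 to 0.10), and Insig1 only without Cre GFP array 2 (-0.14 to 0.015). The cause was not tested.

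With a replicate block 3 members were called against Cre GFP, Sqle being lost (-0.42, adjusted p = 0.0624), 6 against the knockout and 0 in the knockout. Same-numbered arrays correlated at over 0.1 in 0, 2 and 1 of 5 pairs, so the numbers were not taken as pairs.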
